A study of Mus musculus with 21 samples.

Results

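Coch, Shisa2 and Isg20l2 are 3 of the 20872 genes measured in mouse aortic valves, and they were picked because their levels were low in stenotic valves of mice given solvent. They were selected on the FPKM of N1het stenosis libraries, with no threshold, so every difference that involves N1het stenosis or N1het healthy libraries is given as a description, without a test. Total RNA of 21 valve libraries was profiled in 5 labelled groups. N1het stenosis XCT790 (3 libraries) and N1het healthy XCT790 (5 libraries) came from mice given XCT790, an inverse agonist of the nuclear receptor ERRα, at 5 mg/kg/day. N1het stenosis (3 libraries), N1het healthy (6 libraries) and WT (4 libraries, healthy valves) came from mice given solvent. Injections into the peritoneum were daily for 4 weeks and began at 4 weeks of age. N1het stands for N1+/-, heterozygous loss of Notch1, and WT for N1+/+. Mice of all 5 groups, WT included, were Terc-/- of generation 2, without the RNA template of telomerase, so no group has intact telomerase. The labels name no Cre or transgene, so the Notch1 loss is not tied to a cell type. Nothing in the labels says that replicates came from separate animals, so a p-value measures the spread between these samples, which may be technical.

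Before the results, 2 features of the libraries need stating. In 6 libraries the agent field of the labels contradicts the title: N1het healthy XCT790 1, 2 and 3 carry solvent in that field, and N1het stenosis 1, 2 and 3 carry XCT790. The names of the data columns follow the titles, which define the groups here. The library N1het stenosis XCT790 1 stands apart by its markers of epicardial and mesothelial cells, which summed to 998 FPKM, against at most 54.6 FPKM in any other library. FPKM counts sequenced fragments, scaled by transcript length and sequencing depth. The differences under XCT790 are given below with and without N1het stenosis XCT790 1, and the members' tested differences also with the groups drawn from the agent field. For lists and genes that are not members, leaving out that library was chosen after the values were seen. Whole reads recovered from the FPKM steps summed to between 8.4 and 27.3 M reads per library, with a median of 13.7 M reads. The most abundant interstitial cell markers, Dcn, Vim and Dpt, averaged 4100, 2150 and 1290 FPKM over the 21 libraries.

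The aortic valve leaflet is a thin sheet of extracellular matrix kept by interstitial cells under a layer of endothelium, and human NOTCH1 mutations cause aortic valve disease. The 3 genes act in different places of the cell. Coch encodes cochlin, a secreted matrix protein with an LCCL domain and von Willebrand factor A domains, best known from the inner ear, where mutations of the human gene cause hearing loss. Shisa2 encodes a membrane protein of the endoplasmic reticulum, and Shisa proteins were described in frog embryos as holding immature Frizzled and FGF receptors back from the cell surface. Isg20l2 encodes a nucleolar exonuclease, whose human counterpart trims precursors of ribosomal RNA.

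The DNA just before Coch and Shisa2 is shown because Notch signals through RBPJ, a DNA-binding protein whose core motif can be looked for there. Sequences are those of RefSeq on GRCm38.p6, plus strand, ending at the last base before the first annotated base of the gene. All 3 genes matched the promoter table. They do not come from the mm9 build named for the deposited data, and no coordinates were carried over. Capitals mark matches on either strand to the RBPJ core TGGGAA, the ERR motif AAGGTCA, the GC box GGGCGG or the TATA box TATAAA. The RBPJ core reads TTCCCA where it lies on the minus strand.
Coch, chr12:51593091-51593282, 192 bases: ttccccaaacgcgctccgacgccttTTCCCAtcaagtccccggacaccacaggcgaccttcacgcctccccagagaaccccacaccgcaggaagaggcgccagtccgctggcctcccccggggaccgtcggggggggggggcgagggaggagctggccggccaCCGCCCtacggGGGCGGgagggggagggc
Shisa2, chr14:59625031-59625280, 250 bases: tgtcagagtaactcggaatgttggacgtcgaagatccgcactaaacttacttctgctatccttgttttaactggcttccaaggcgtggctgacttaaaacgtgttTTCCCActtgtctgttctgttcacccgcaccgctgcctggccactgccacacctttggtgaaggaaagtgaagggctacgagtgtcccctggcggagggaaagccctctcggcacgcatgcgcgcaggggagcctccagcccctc
The Coch sequence holds 1 RBPJ core at position -167, counted back from the first annotated base, and 2 GC boxes at positions -29 and -18. The Shisa2 sequence holds 1 RBPJ core at position -145. No printed motif overlaps another. Over the full window of 300 bases around the start, Isg20l2 had 0 RBPJ cores and 1 GC box, and its sequence is not printed because it lies within the gene Rrnad1. The RBPJ core was present in 25.6% of the 32851 RefSeq promoters of that length, so its presence before 2 genes is a description of these letters only. The ERR motif was found in 0 of the 3 windows, against 4.72% of all promoters. The windows of Coch, Shisa2 and Isg20l2 had 73.7%, 58.0% and 65.0% G and C, against a median of 52.7%.

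Coch (ENSMUSG00000020953), the matrix gene, spanned the widest range of the 3. Its levels were 29.2, 26.3 and 9.99 FPKM in N1het stenosis XCT790 libraries and 9.70, 1.98 and 0.807 FPKM in N1het stenosis libraries. In N1het healthy XCT790 libraries they were 90.0, 77.6, 57.6, 95.4 and 29.7 FPKM. The 6 N1het healthy libraries ran between 29.5 and 111 FPKM with a median of 58.8 FPKM, and the 4 WT libraries had 25.3, 52.0, 22.5 and 39.0 FPKM. The 3 N1het stenosis libraries were the lowest of all 21, and behind their values stood 360, 43 and 18 recovered reads, so the lowest is known only roughly. Ordered by group mean, Coch stood at 70.1 ± 26.8 FPKM in N1het healthy XCT790 (SD, n = 5), 65.8 ± 30.7 in N1het healthy (n = 6), 34.7 ± 13.6 in WT (n = 4), 21.8 ± 10.4 in N1het stenosis XCT790 (n = 3) and 4.16 ± 4.83 FPKM in N1het stenosis (n = 3). Neighbours in this order overlapped in their libraries except the last pair, where 9.99 FPKM in the lowest N1het stenosis XCT790 library stood just above 9.70 FPKM in the highest N1het stenosis library.

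Shisa2 (ENSMUSG00000044461), the receptor-retaining gene, was low throughout N1het stenosis. Its levels were 5.01, 11.6 and 10.1 FPKM in N1het stenosis XCT790 libraries and 0.594, 1.19 and 2.51 FPKM in N1het stenosis libraries. In N1het healthy XCT790 libraries they were 16.5, 15, 11.1, 7.83 and 10.7 FPKM. The N1het healthy libraries ran between 8.53 and 23.8 FPKM with a median of 20.3 FPKM, and the WT libraries had 7.19, 3.05, 10.8 and 9.07 FPKM. The N1het stenosis libraries were again the lowest 3 of 21, on 28, 33 and 71 recovered reads, and they overlapped no other group. The order of group means was 17.4 ± 6.29 FPKM in N1het healthy (SD, n = 6), 12.2 ± 3.51 in N1het healthy XCT790 (n = 5), 8.93 ± 3.47 in N1het stenosis XCT790 (n = 3), 7.53 ± 3.33 in WT (n = 4) and 1.43 ± 0.979 FPKM in N1het stenosis (n = 3). All neighbours above the lowest group overlapped.

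Isg20l2 (ENSMUSG00000048039), the nucleolar exonuclease, was lower in all 5 N1het healthy XCT790 libraries than in all 6 N1het healthy libraries, while N1het healthy XCT790 overlapped WT. Its levels were 8.78, 6.62 and 4.45 FPKM in N1het stenosis XCT790 libraries and 4.00, 2.11 and 2.02 FPKM in N1het stenosis libraries. In N1het healthy XCT790 libraries they were 5.71, 5.94, 8.10, 7.15 and 3.81 FPKM. The N1het healthy libraries ran between 10.2 and 19.9 FPKM with a median of 17.0 FPKM, and the WT libraries had 9.30, 15.7, 5.92 and 4.35 FPKM. The N1het stenosis libraries, on 175, 54 and 53 reads, overlapped N1het healthy XCT790 by 1 library, which had 3.81 FPKM. Group means were 15.7 ± 4.45 FPKM in N1het healthy (SD, n = 6), 8.81 ± 5.01 in WT (n = 4), 6.62 ± 2.16 in N1het stenosis XCT790 (n = 3), 6.14 ± 1.62 in N1het healthy XCT790 (n = 5) and 2.71 ± 1.12 FPKM in N1het stenosis (n = 3), and the libraries of neighbours in this order overlapped in every case. Isg20l2 lies in mouse on the opposite strand from Rrnad1, listed as BC023814, and overlaps it. Whether counting used the strand is not stated. Reads of the pair cannot be told apart where they overlap. BC023814 averaged 5.22 ± 4.47 FPKM in N1het stenosis XCT790 (SD, n = 3), 3.36 ± 1.42 in N1het stenosis (n = 3), 4.18 ± 2.46 in N1het healthy XCT790 (n = 5), 5.28 ± 4.02 in N1het healthy (n = 6) and 8.36 ± 8.01 FPKM in WT (n = 4).

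**Figure D1:**
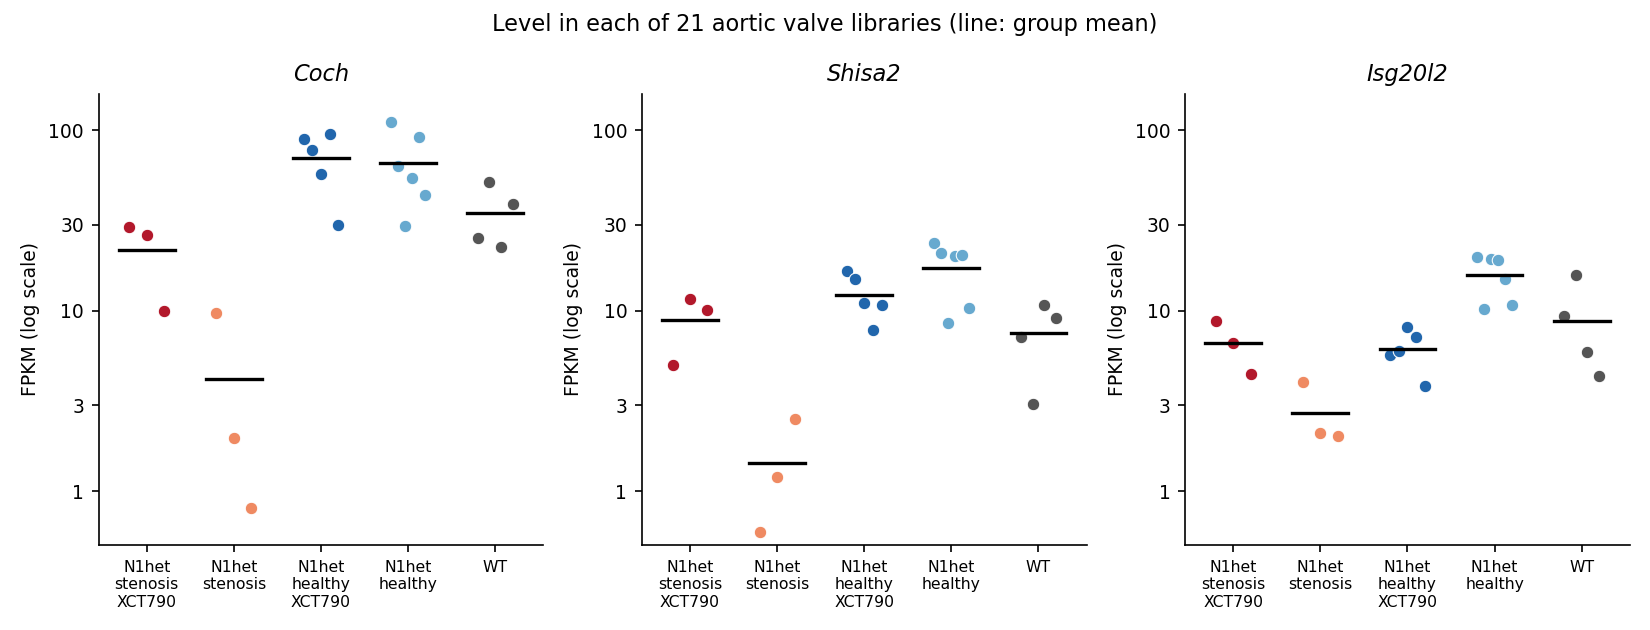
Level of Coch, Shisa2 and Isg20l2 in each library, in FPKM on a log axis, with the 5 groups side by side. Points are libraries and lines are group means. Coch and Shisa2 are lowest in the 3 N1het stenosis libraries (at most 9.70 and 2.51 FPKM), and the 5 N1het healthy XCT790 libraries of Isg20l2 (3.81 to 8.10 FPKM) all lie under the 6 N1het healthy libraries (10.2 to 19.9 FPKM).

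The values that chose the members are these. In N1het stenosis minus N1het healthy, the log2 difference of FPKM + 1 was -3.98 ± 0.50 for Coch, -2.91 ± 0.40 for Shisa2 and -2.16 ± 0.36 for Isg20l2 (± SE from the fit of all genes, n = 3 and 6). For each gene the 3 N1het stenosis libraries lay below all 6 N1het healthy libraries. Such a separation downward was seen in 2.74% of the 14966 genes tested, and since these libraries chose the members nothing is read from it. No tested gene had a lower difference than Coch in this comparison. Against WT the N1het stenosis differences were -3.13 ± 0.54 for Coch, -1.78 ± 0.43 for Shisa2 and -1.31 ± 0.39 for Isg20l2, and the 3 N1het stenosis libraries lay below all 4 WT libraries for each gene, as they did for 3.55% of genes. The 2 comparisons share the N1het stenosis libraries. The authors' deposited table marks all 3 genes in both of these comparisons, where it marks 1.26% and 1.35% of the 20872 genes, by a test whose details are not stated. The log2 scale with 1 added understates changes at low levels: with 0.1 added, Shisa2 differed by -3.62.

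The comparison that uses neither N1het stenosis nor N1het healthy libraries is disease under XCT790. Earlier results of these data were known when the members were chosen, so its independence from the choice is not shown. In N1het stenosis XCT790 minus N1het healthy XCT790, Coch averaged 21.8 ± 10.4 FPKM in stenotic valves (SD, n = 3) and 70.1 ± 26.8 FPKM in healthy valves (n = 5). The log2 difference was -1.66 ± 0.52 (SE), with a 95% confidence interval of -2.74 to -0.58. All 3 stenotic libraries, with 29.2 FPKM at most, lay below all 5 healthy libraries, with 29.7 FPKM at least, and such a separation downward was seen in 1.96% of genes tested. The limma fit gave an adjusted p = 0.834 over the 14966 genes, so Coch was not called. The exact two-sided permutation test over libraries gave p = 0.0357, where the 56 splits allow 0.0179 at the smallest. That p is not adjusted for the 3 genes and 3 comparisons tested in this way. No gene passed an adjusted p of 0.05 in this comparison (0 called with limma on FPKM, 0 with voom on recovered reads), while 760 genes (5.08%) had an unadjusted p under 0.05. Only 0.514% of the tested genes had a lower log2 difference than Coch.

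Coch kept its direction with N1het stenosis XCT790 1 left out, at -1.93 ± 0.60 with an adjusted p = 0.639 by limma. With the groups drawn from the agent field it stood at -2.60 ± 0.78, adjusted p = 0.446, but that grouping adds the 3 libraries that chose the gene. Without N1het stenosis XCT790 3, the library of 9.99 FPKM, the difference was -1.20 ± 0.57. The other members showed less in the same comparison. Shisa2 averaged 8.93 ± 3.47 FPKM in N1het stenosis XCT790 (SD, n = 3) and 12.2 ± 3.51 FPKM in N1het healthy XCT790 (n = 5), a log2 difference of -0.44 ± 0.41 with an interval of -1.30 to 0.42. The limma adjusted p was 0.98 and the exact permutation p = 0.214. Its difference was -0.11 ± 0.46 without N1het stenosis XCT790 1, the library of the lowest Shisa2 in that group. With the agent field, which again adds the libraries of the choice, the Shisa2 difference was -1.12 ± 0.62.

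Isg20l2 averaged 6.62 ± 2.16 FPKM in N1het stenosis XCT790 (SD, n = 3) and 6.14 ± 1.62 FPKM in N1het healthy XCT790 (n = 5). Its log2 difference was 0.09 ± 0.37, with an interval of -0.69 to 0.86, a limma adjusted p = 1 and an exact permutation p = 0.75. The sign was not stable, at -0.12 ± 0.43 without N1het stenosis XCT790 1 and -0.05 ± 0.39 without N1het healthy XCT790 5. With the agent field, whose grouping adds the libraries that chose the genes, it stood at -0.28 ± 0.53. For no member was the difference between the disease effects under XCT790 and under solvent tested, since the solvent libraries chose the genes.

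**Figure D2:**
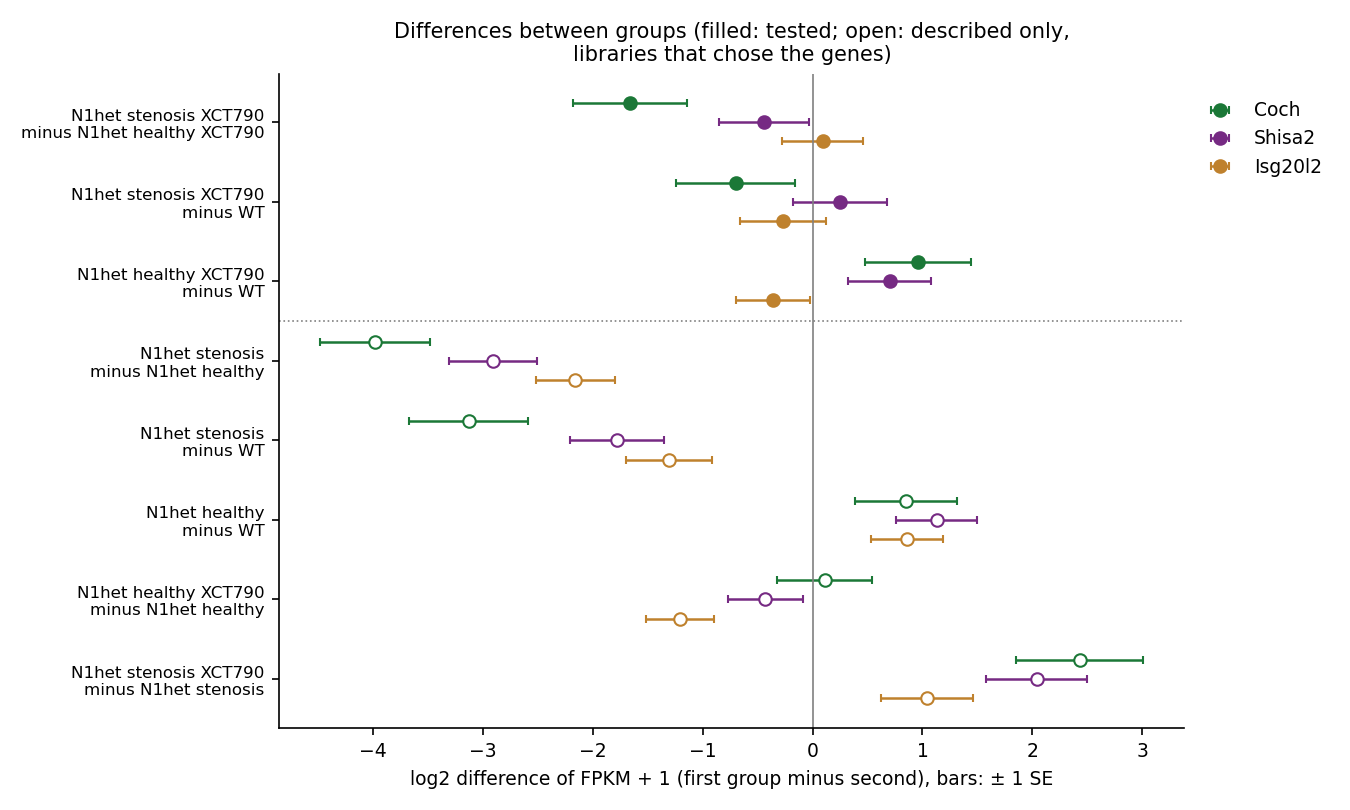
Log2 differences of FPKM + 1 for Coch, Shisa2 and Isg20l2 in 8 comparisons, as the first group minus the second, with bars of ± 1 SE. Filled points were tested and open points use libraries that chose the genes. Coch stands at -1.66 in stenosis under XCT790, where Shisa2 stands at -0.44 and Isg20l2 at 0.09.

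Between XCT790 and solvent the groups were set side by side as a description. In stenotic valves each gene was higher in all 3 N1het stenosis XCT790 libraries than in all 3 N1het stenosis libraries, by 2.43 ± 0.58 for Coch, 2.04 ± 0.46 for Shisa2 and 1.04 ± 0.42 for Isg20l2 on the log2 scale (SE, n = 3 each). With N1het stenosis XCT790 1 left out the differences were 2.16 ± 0.65, 2.36 ± 0.51 and 0.84 ± 0.47. A separation upward was seen in 6.09% of genes tested, and N1het stenosis was chosen for its low values. By the agent field all 3 N1het stenosis libraries were given XCT790, so under that field this is no comparison with solvent. The authors' deposited table marks Shisa2, and neither Coch nor Isg20l2, in this comparison, where it marks 0.268% of genes. In healthy valves the difference of N1het healthy XCT790 minus N1het healthy was 0.11 ± 0.43 for Coch and -0.43 ± 0.34 for Shisa2, with overlapping libraries. Isg20l2 differed by -1.21 ± 0.31 there. Its 5 N1het healthy XCT790 libraries lay below all 6 N1het healthy libraries, which 0.0869% of tested genes did. The authors' deposited table marks Isg20l2 and neither other member in that comparison, where it marks 0.125% of genes. The N1het healthy libraries took part in the choice, which favours high values in them, so nothing is read from that share or mark. By the agent field N1het healthy XCT790 1, 2 and 3 were given solvent, and they had 5.71, 5.94 and 8.10 FPKM of Isg20l2, against 7.15 and 3.81 FPKM in the libraries labelled XCT790 in both fields.

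Against WT, neither XCT790 group is a solvent group of the choice, though both comparisons share the 4 WT libraries. N1het stenosis also lay below WT for each member, and whether WT levels took part in the choice is not stated. The tests against WT carry that limit. Coch in N1het healthy XCT790 minus WT differed by 0.96 ± 0.48 on the log2 scale (interval -0.03 to 1.96), with 70.1 ± 26.8 FPKM in N1het healthy XCT790 (SD, n = 5) and 34.7 ± 13.6 FPKM in WT (n = 4). Of the 5 libraries 4 lay above the highest WT library, and the exact permutation p was 0.0635, where 126 splits allow 0.00794. Shisa2 differed by 0.70 ± 0.38 (interval -0.09 to 1.49, exact permutation p = 0.0794) and Isg20l2 by -0.36 ± 0.34 (interval -1.07 to 0.36, exact permutation p = 0.381). Without WT 2, the WT library lowest in Shisa2 and highest in Isg20l2, these were 0.37 ± 0.38 and -0.06 ± 0.35, and Isg20l2 was -0.22 ± 0.36 without N1het healthy XCT790 5 and -0.60 ± 0.35 without WT 4. The limma adjusted p values were 0.689, 0.735 and 0.861. With the agent field, which leaves 2 libraries in N1het healthy XCT790, the differences were 0.69 ± 0.82, 0.36 ± 0.65 and -0.51 ± 0.56. The limma fit called 0 genes in this comparison (0%), and 1107 genes (7.4%) had an unadjusted p under 0.05.

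In N1het stenosis XCT790 minus WT the interval of each member included 0. Coch differed by -0.70 ± 0.54 (interval -1.83 to 0.43, exact permutation p = 0.286), Shisa2 by 0.25 ± 0.43 (interval -0.65 to 1.16, exact permutation p = 0.629) and Isg20l2 by -0.27 ± 0.39 (interval -1.08 to 0.54, exact permutation p = 0.629). The 35 splits allow an exact p of 0.0286 at the smallest, and the limma adjusted p values were 0.735, 0.9 and 0.875. The limma fit called 0 genes there (0%), and 1301 genes (8.69%) had an unadjusted p under 0.05. Without N1het stenosis XCT790 1 the differences were -0.97 ± 0.62 for Coch, 0.58 ± 0.48 for Shisa2 and -0.47 ± 0.45 for Isg20l2. Without N1het stenosis XCT790 3 Coch differed by -0.24 ± 0.59, Shisa2 by 0.14 ± 0.50 and Isg20l2 by -0.05 ± 0.44. Without WT 2 the differences were -0.48 ± 0.58, -0.07 ± 0.43 and 0.03 ± 0.39. With the agent field, Coch stood at -1.91, Shisa2 at -0.76 and Isg20l2 at -0.79, on groups that include the libraries of the choice. N1het healthy minus WT, described only, gave 0.85 ± 0.46 for Coch, 1.13 ± 0.37 for Shisa2 and 0.86 ± 0.33 for Isg20l2. The authors' deposited table marks none of the 3 genes there, where it marks 0.666% of all genes.

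Markers of valve cell types were read in the same libraries, and their part in the members' differences was not tested. All 15 markers of interstitial cells and fibroblasts were lower in N1het stenosis XCT790 than in N1het healthy XCT790, with 0 called and a median log2 difference of -0.59 (all genes 0.04), or -0.53 without N1het stenosis XCT790 1 (all genes 0.00), and their summed level ran between 7390 and 9350 FPKM in the 3 N1het stenosis XCT790 libraries, as against 10500 to 13200 FPKM in the 5 N1het healthy XCT790 libraries. In N1het stenosis the sum ran between 6980 and 8210 FPKM, against 9480 to 15600 FPKM in N1het healthy and 8930 to 11300 FPKM in WT. The 18 macrophage and monocyte markers summed to 2440 to 10200 FPKM in N1het stenosis XCT790, 4700 to 8620 in N1het stenosis, 1670 to 5060 in N1het healthy XCT790, 1220 to 2900 in N1het healthy and 1640 to 2950 FPKM in WT. No marker of either list was at 0 in every library. In bulk valves, fewer cells of a type and less RNA per cell cannot be told apart.

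Of the 3 genes, Coch had the highest correlation with the interstitial list. Over the 21 libraries its correlation with the mean of that list was r = 0.79, against 0.75 for Shisa2 and 0.59 for Isg20l2, and over the 18 libraries without N1het stenosis it was 0.72, 0.54 and 0.34. These are descriptions over libraries that share their groups. Against the macrophage list r was -0.67 for Coch, -0.55 for Shisa2 and -0.60 for Isg20l2 over 21 libraries, and -0.52, -0.32 and -0.42 over the 18 libraries without N1het stenosis. Against sequencing depth, as log2 reads, r was 0.50, 0.41 and 0.39 over 21 libraries and 0.40, 0.38 and 0.23 over 18. Set against the interstitial mean of its own library, Coch stood at -3.30 ± 0.67 on the log2 scale in N1het stenosis XCT790 (SD, n = 3), -5.42 ± 1.38 in N1het stenosis (n = 3), -2.20 ± 0.48 in N1het healthy XCT790 (n = 5), -2.34 ± 0.63 in N1het healthy (n = 6) and -2.92 ± 0.61 in WT (n = 4). The N1het stenosis libraries, at -6.44 to -3.85, overlapped those of N1het stenosis XCT790, at -4.06 to -2.86. On the same scale Shisa2 stood at -4.44 ± 0.65 in N1het stenosis XCT790, -6.16 ± 0.60 in N1het stenosis, -4.56 ± 0.38 in N1het healthy XCT790, -4.15 ± 0.43 in N1het healthy and -5.02 ± 0.67 in WT, where N1het stenosis, at -6.60 to -5.48, overlapped WT, at -5.91 to -4.39. Isg20l2 stood at -4.79 ± 0.29 in N1het stenosis XCT790, -5.52 ± 0.50 in N1het stenosis, -5.44 ± 0.33 in N1het healthy XCT790, -4.25 ± 0.52 in N1het healthy and -4.85 ± 0.72 in WT. Its N1het stenosis libraries, at -5.90 to -4.95, overlapped those of N1het healthy XCT790, at -5.68 to -4.92. They also overlapped those of WT, at -5.55 to -3.87, and of N1het stenosis XCT790, at -5.07 to -4.49. With the interstitial mean as a covariate, an alternative chosen after the values were seen, the Coch difference under XCT790 was -1.09 ± 0.62 (limma adjusted p = 1), that of Shisa2 -0.02 ± 0.50 and that of Isg20l2 0.26 ± 0.47.

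**Figure D3:**
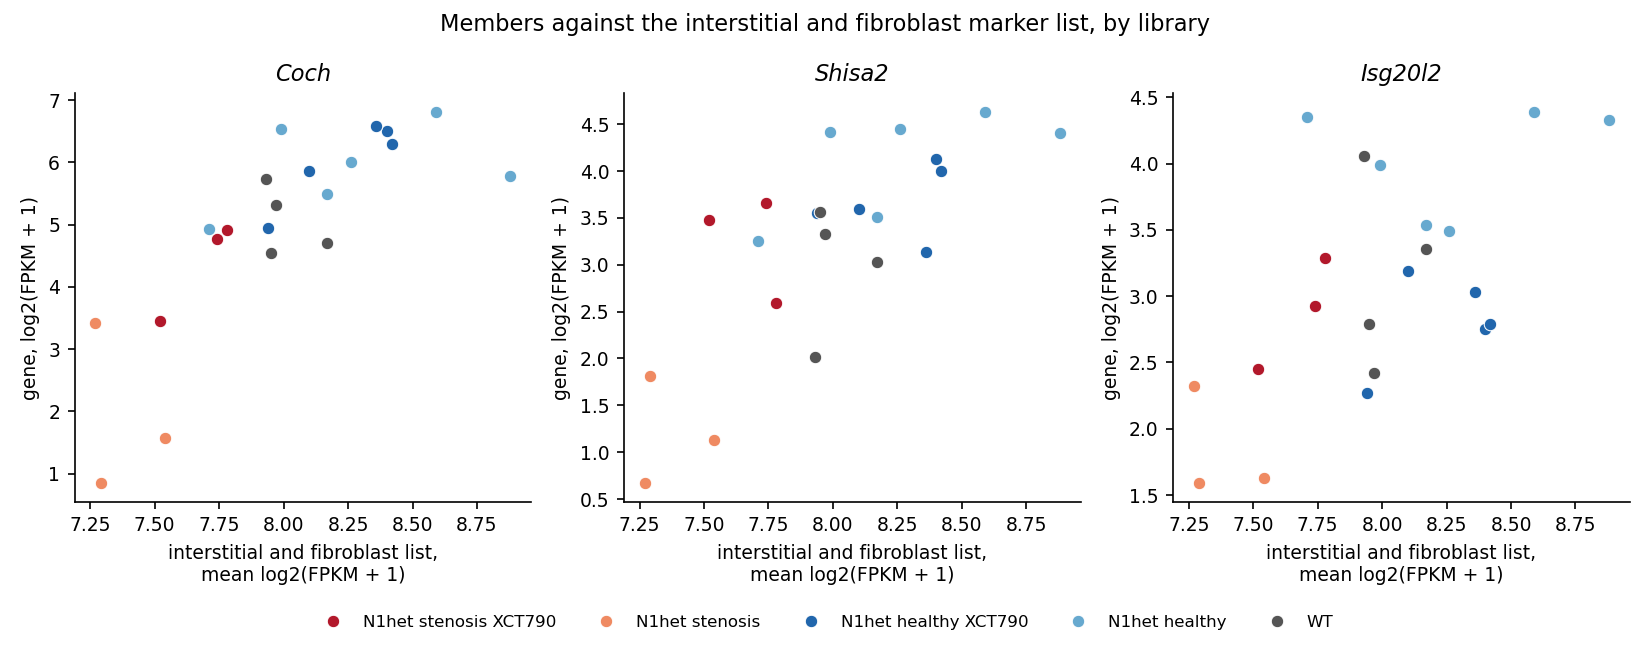
Each member's level against the mean level of 15 interstitial and fibroblast markers in the same library, both as log2(FPKM + 1), coloured by group. The 3 N1het stenosis libraries sit at the lower left for all 3 genes, and r over the 21 libraries is 0.79 for Coch, 0.75 for Shisa2 and 0.59 for Isg20l2.

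The correlations between members were higher over all libraries than for deviations from group means. Over 21 libraries r was 0.73 between Coch and Shisa2, 0.70 between Coch and Isg20l2 and 0.54 between Shisa2 and Isg20l2, a likeness that the choice favours. Without N1het stenosis it was 0.43, 0.38 and 0.14. For deviations from group means it was -0.11, 0.50 and -0.49. The within-group SD of log2(FPKM + 1) was 0.79 for Coch, 0.56 for Shisa2 and 0.47 for Isg20l2, against a median of 0.67 over all genes tested, so Coch was the most variable of the 3 between libraries of a group.

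Among the genes whose pattern over the 21 libraries was most like that of Coch were Kank1, an adaptor at cell adhesions (r = 0.90), Igsf10, an immunoglobulin superfamily gene (0.87), the retinoic acid receptor Rara (0.82) and the Wnt agonist Rspo3 (0.81). Without N1het stenosis r was 0.70 for Kank1, 0.83 for Igsf10, 0.45 for Rara and 0.77 for Rspo3, so, of these 4, the likeness to Rara rested most on the stenotic solvent valves. Igsf10 averaged 15.2 ± 4.04 FPKM in N1het stenosis XCT790 (SD, n = 3), 10.7 ± 2.30 in N1het stenosis (n = 3), 31.9 ± 9.71 in N1het healthy XCT790 (n = 5), 32.3 ± 19.1 in N1het healthy (n = 6) and 27.1 ± 5.25 FPKM in WT (n = 4). Rara averaged 22.3 ± 3.18 FPKM in N1het stenosis XCT790, 8.20 ± 0.513 in N1het stenosis, 22.7 ± 7.10 in N1het healthy XCT790, 25.0 ± 3.87 in N1het healthy and 20.2 ± 1.57 FPKM in WT. Most unlike Coch were S100a9, a calcium-binding protein of neutrophils (r = -0.80, and -0.19 without N1het stenosis), the kinesin Kif1c (-0.78) and the Src-family kinase Lyn (-0.78). S100a9 was listed at 0 in every N1het healthy and WT library and averaged 17.4 ± 16.1 FPKM in N1het stenosis (n = 3). The N1het stenosis libraries themselves ran between 0 and 31.9 FPKM, with a median of 20.3 FPKM.

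Among the genes most like Shisa2 were the adhesion molecule Cadm1 (r = 0.81), the glutamate receptor subunit Grin3a (0.80), Plxdc2 (0.78) and the scavenger receptor Scara3 (0.77), and these were 0.75, 0.62, 0.55 and 0.65 without N1het stenosis. It was most unlike the chemokine Ccl6 (-0.73), the mitochondrial transport adaptor Trak2 (-0.73) and Mfsd1 (-0.72). Isg20l2 was most like the RNA-binding gene Rbm4b (0.74), Rara (0.73), the magnesium transporter Slc41a1 (0.71), the hedgehog co-receptor Gas1 (0.70) and Coch (0.70). Without N1het stenosis these stood at 0.63, 0.50, 0.58, 0.49 and 0.38. It was most unlike Znhit6, which takes part in the assembly of small nucleolar RNA particles (-0.77), the leukocyte gene Dock2 (-0.76) and the chemokine receptor Cxcr4 (-0.76). Rara stood among the most like genes of both Coch and Isg20l2.

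**Figure D4:**
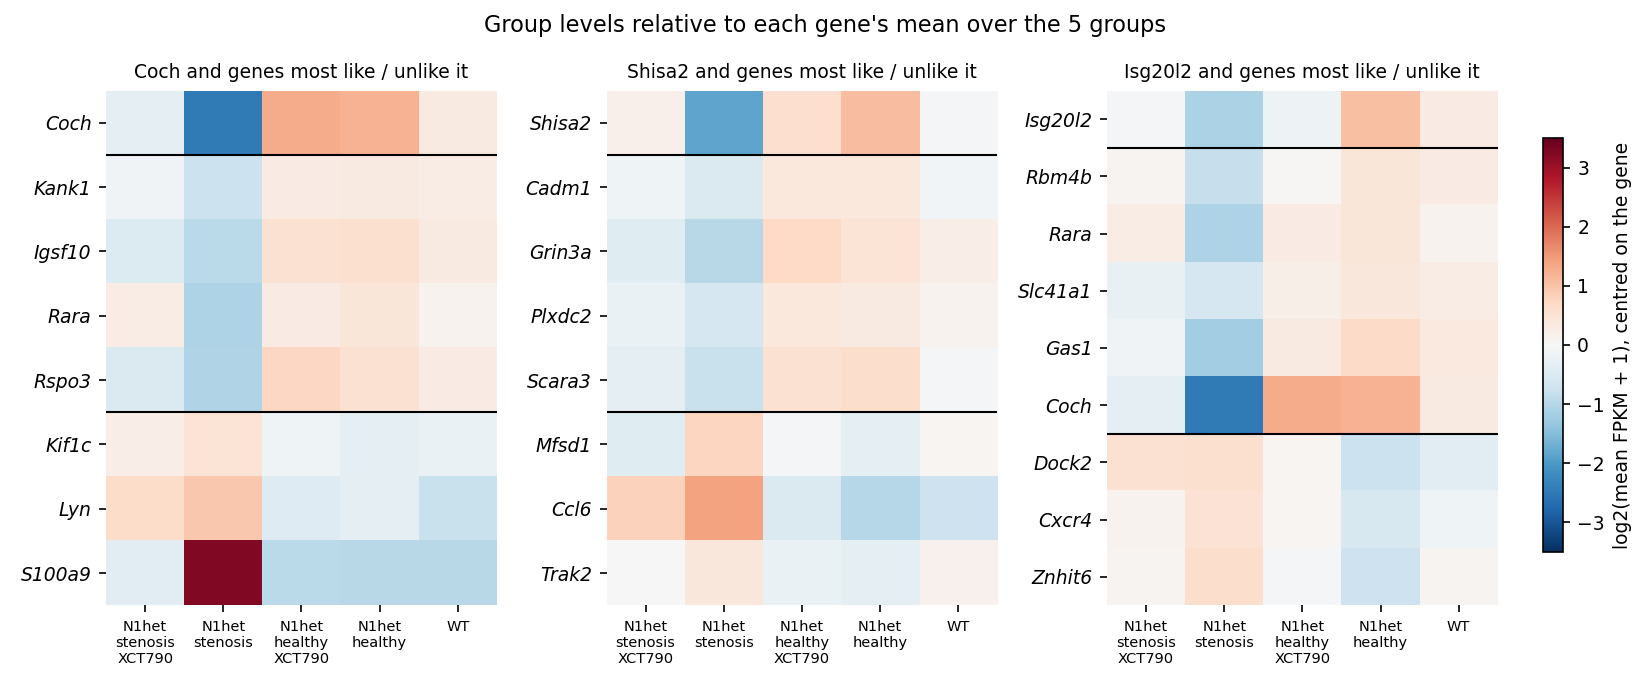
Group levels of each member (top row of a panel), 4 or 5 of the genes most like it and the 3 most unlike it, as log2(mean FPKM + 1) centred on each gene's mean over the 5 groups. Red is higher and blue lower. The N1het stenosis column is lowest for the members and the genes most like them. The choice of the members favours this, as does ranking likeness over libraries that include N1het stenosis. Isg20l2 also differs between N1het healthy XCT790 (6.14 FPKM) and N1het healthy (15.7 FPKM).

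Genes of related function were read from 7 lists, and 0 of their genes were called in any of the 8 comparisons. Over all genes, limma called 0.0334% in N1het stenosis minus N1het healthy, 0.0334% in N1het stenosis minus WT and 0% in the others. Of 8 tested matrix relatives of cochlin with LCCL or von Willebrand factor A domains, 6 were lower in N1het stenosis XCT790 than in N1het healthy XCT790, with a median log2 difference of -0.52, against 0.04 over all genes and 46.3% of genes below 0. Crispld2, a secreted LCCL protein, averaged 47.9 ± 13.2 FPKM in N1het stenosis XCT790 (SD, n = 3) and 116 ± 41.8 FPKM in N1het healthy XCT790 (n = 5), a difference of -1.22 ± 0.27 (limma adjusted p = 0.346). It averaged 62.9 ± 4.59 FPKM in N1het stenosis (n = 3) and 117 ± 28.3 FPKM in N1het healthy (n = 6). Vwf, the von Willebrand factor of endothelium, differed the other way under XCT790, by 1.44 ± 0.60 (adjusted p = 0.929). The 5 tested genes of cochlin-cleaving ADAMTS proteases and type II collagen had a median of -0.37, led by Adamts15 at -1.21 ± 0.57 (adjusted p = 0.958). With N1het stenosis XCT790 1 left out, the medians of the 2 lists were -0.60 and -0.92, and Crispld2 differed by -1.18 ± 0.31, Vwf by 0.75 ± 0.63 and Adamts15 by -1.41 ± 0.66.

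Of the Shisa family 6 of 10 genes were listed and 2 tested, Shisa4 at -0.38 ± 0.43 and Shisa5 at -0.16 ± 0.25 under XCT790. Shisa4 changed sign without N1het stenosis XCT790 1, at 0.22 ± 0.42, and Shisa5 stood at -0.05 ± 0.28. Shisa4 averaged 44.9 ± 28.0 FPKM in N1het stenosis XCT790 (SD, n = 3), 21.1 ± 0.815 in N1het stenosis (n = 3), 50.4 ± 9.56 in N1het healthy XCT790 (n = 5), 54.9 ± 39.6 in N1het healthy (n = 6) and 34.7 ± 8.95 FPKM in WT (n = 4). The list of Wnt and FGF receptors was wider than the Frizzled and FGF receptors on which Shisa acts in frog. Of its 20 tested genes, 14 were lower in N1het stenosis XCT790 than in N1het healthy XCT790, with a median of -0.44. The Wnt co-receptor Lrp5 differed by -0.85 ± 0.29, the FGF receptor relative Fgfrl1 by -1.12 ± 0.40 and Fzd1 by -1.03 ± 0.38 (limma adjusted p = 0.868, 0.917 and 0.923). Of 21 tested response genes of these pathways 13 were lower and the median was -0.22. Lef1, a Wnt effector, differed by -1.48 ± 0.60, Etv1 by -0.96 ± 0.38, and the cyclin Ccnd1 by 0.72 ± 0.26 (adjusted p = 0.923 each). Without N1het stenosis XCT790 1 the medians were -0.43 for the receptors and -0.17 for the response genes, with Lrp5 at -0.56 ± 0.32, Fgfrl1 at -1.17 ± 0.47, Fzd1 within its SE of the value above, Lef1 at -1.48 ± 0.70, Etv1 at -0.55 ± 0.41 and Ccnd1 at 1.03 ± 0.28.

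Relatives and partners of Isg20l2 stood close to the median of all genes or above it under XCT790. Of 9 tested DEDDh exonuclease relatives, 3 were lower in N1het stenosis XCT790 than in N1het healthy XCT790 and the median was 0.20, with Isg20 itself at 1.61 ± 0.74 (limma adjusted p = 0.958). Isg20 averaged 10.6 ± 0.595 FPKM in N1het stenosis XCT790 (SD, n = 3), 13.0 ± 2.66 in N1het stenosis (n = 3), 4.17 ± 4.13 in N1het healthy XCT790 (n = 5), 8.71 ± 6.04 in N1het healthy (n = 6) and 4.69 ± 2.69 FPKM in WT (n = 4). Of 21 tested genes for maturing Isg20l2's ribosomal RNA substrate and its neighbouring spacer, the exosome among them, 6 were lower. Their median was 0.18, with the exosome cofactor C1d at 0.61 ± 0.29 (adjusted p = 0.958). Leaving out N1het stenosis XCT790 1 gave medians of 0.39, with 0 of the 9 relatives lower, and 0.27, with 8 of the 21 lower, while Isg20 stood at 1.64 ± 0.87 and C1d at 0.68 ± 0.34. In N1het stenosis minus N1het healthy, where Isg20l2 stood at -2.16, the medians of these lists were 0.45 and -0.22, against -0.04 over all genes.

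The chromosomal neighbours were read in the groups of the choice, as a description. Coch stands between Scfd1 and Strn3 in the reference gene order. Scfd1, a vesicle fusion factor, averaged 18.9 ± 2.33 FPKM in N1het stenosis (SD, n = 3) and 21.8 ± 9.23 FPKM in N1het healthy (n = 6), and Strn3, a striatin, averaged 45.5 ± 6.33 FPKM in N1het stenosis and 41.6 ± 8.97 FPKM in N1het healthy. Cdadc1 beside Shisa2 averaged 25.5 ± 14.8 FPKM in N1het stenosis and 16.6 ± 8.43 FPKM in N1het healthy, and Atp8a2 on the other side was too low to test, with a mean of 0.525 FPKM. Mrpl24 beside Isg20l2 averaged 18.9 ± 3.38 FPKM in N1het stenosis and 36.0 ± 17.8 FPKM in N1het healthy, and Crabp2 was too low to test, with a mean of 0.138 FPKM.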

How the data were processed

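Valves were lysed directly, RNA was cleaned with a Qiagen RNeasy Micro kit, and NuGEN Ovation V2 reagents amplified it into libraries, all per the labels' protocols. Programs named in the submitters' processing notes are FastQC, HISAT2, SAMtools and Picard, with mm9 as the build. Their versions, the counter and any strand setting are not stated. The authors deposited FPKM per gene and library, their group means (used only as a check) and marks of 0 or 1 in 5 comparisons, whose score-like values are read as marked or not. Whole reads were recovered from the FPKM steps (100.00% of nonzero values whole within 0.01 reads); intervals cover only spread between libraries, and amplified reads are not independent molecules. limma 3.58.1 (R 4.3.3, statmod 1.5.0), with a variance trend and robust moderation, was fitted to log2(FPKM + 1) of 14966 genes whose mean FPKM reached 1 (5906 left out), with 5 group means over 21 libraries and Benjamini-Hochberg adjustment, called under 0.05. The fit was tested on simulated data first. Single genes also had an exact permutation test over libraries, in 3 comparisons for 3 genes, without adjustment for their number. The members and gene lists were chosen with earlier results of these data known. Named genes are the members, the 5 most and 3 least correlated genes of each, up to 4 genes of smallest p per list in stenosis under XCT790, neighbours, and up to 3 top markers per cell type (12 lists). Of the most correlated genes, 2 are not reported here. Alternatives covered pseudocount, filters, scaling, samples in the fit, depth, muscle and interstitial markers as covariates, the agent field, replicate block, voom and each library left out.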

Additional observations from a re-analysis of the deposited data

How the results depend on the processing

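Under 13 alternatives besides leaving out libraries, no member was called in any tested comparison. For stenosis under XCT790 (N1het stenosis XCT790 minus N1het healthy XCT790) Coch lay between -2.60 and -1.09, with limma adjusted p between 0.441 and 1, and between -1.94 and -1.20 with each library left out. The -2.60 of Coch and the agent-field values below come from groups that include the libraries of the choice. Isg20l2 turned to -0.05 with the replicate block and -0.28 with the agent field, and ran between -0.12 and 0.31 with each library left out. Coch in N1het stenosis XCT790 minus WT ran between -0.97 and -0.24 with each library left out. Shisa2 there turned to -0.76 with the agent field and ran between -0.07 and 0.58 with each library left out, below 0 without WT 2; Isg20l2 there ran between -0.52 and 0.03, above 0 without WT 2. Genes called for stenosis under XCT790 were 1 with no filter on low values, 1 with the deepest libraries as a covariate, and 0 to 5 with each library left out (5 without N1het stenosis XCT790 1, 2 without N1het stenosis XCT790 3). Replicate numbers do not pair the libraries (r of deviations -0.07 to 0.10), and the block gave Coch -1.69 there with 0 genes called. In N1het stenosis minus N1het healthy, Shisa2 moved to -3.89 and -3.85 with voom, without and with quality weights, and to -2.24 with the interstitial list as a covariate, where Coch moved to -3.08; the cause was not tested. By the agent field no solvent group of stenotic valves remains, so this comparison has no value there. Median-of-ratios scaling shifted all genes by -0.12 in N1het stenosis XCT790 minus WT. The lowest member values rest on few reads, 18 for Coch and 28 for Shisa2, which limits their precision.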

Other observations

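The marker lists of other cell types were read in N1het stenosis XCT790 minus N1het healthy XCT790, with 0 genes called in each and a median log2 difference of 0.04 over all genes. The median was 0.66 for 12 endothelial markers, of which 0 were lower, and 0.39 for 18 macrophage and monocyte markers. It was 0.38 for 13 heart muscle, -0.19 for 8 smooth muscle, -0.54 for 6 tested cartilage-type, -0.04 for 7 melanocyte and -0.54 for 6 tested Schwann cell and neuron markers. It was -0.04 for 3 tested lymphocyte, 1.44 for 2 tested adipocyte and -0.29 for 5 tested erythroid markers. The 6 tested epicardial and mesothelial markers had a median of 1.66, and 1 library of the 3, N1het stenosis XCT790 1, holds 998 FPKM of them while the lowest of the 3 holds 0.0822 FPKM. Without that library the median was -0.67 for the epicardial list, 0.37 for endothelial, 0.95 for macrophage, -0.53 for heart muscle, -1.41 for smooth muscle, -0.07 for cartilage-type, 0.83 for melanocyte, -0.15 for Schwann cell and neuron, -0.04 for lymphocyte, -0.36 for adipocyte and -2.20 for erythroid markers, against 0.00 over all genes. Heart muscle markers summed to between 164 and 2090 FPKM in N1het stenosis XCT790 and between 71.3 and 1980 FPKM in N1het healthy XCT790. Over the 21 libraries their mean level had r = -0.08 with Coch, 0.06 with Shisa2 and -0.19 with Isg20l2.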
